A study of Saccharomyces cerevisiae with 21 samples.

Results

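The spliceosomal small nuclear RNAs and the other structural noncoding RNAs of budding yeast (Saccharomyces cerevisiae) were taken by symbol from the deposited count tables: LSR1 (U2), snR19 (U1), snR14 (U4), snR7-L and snR7-S (the long and short U5), snR6 (U6), NME1, RPR1, SCR1 and TLC1. All 10 were among the 5907 genes present in at least 1 of the tables, 9 of them in the full-gene counts and 10 in the mid-gene sense counts. Total RNA of 21 libraries, 3 of each of 7 strains grown to log phase at 30 °C in rich medium, was sequenced with strand kept after removal of ribosomal RNA. Beside WT there were 3 strains with changes in SPT6 (spt6-R, spt6-KK and the double mutant spt6-R,KK) and 3 with changes in RPB1 (rpb1-TPY, rpb1-FSP and the double mutant rpb1-TPY,FSP). Spt6 is a histone chaperone and elongation factor whose tandem SH2 domain binds Rpb1, the largest subunit of RNA polymerase II. The labels do not give the residues behind the allele names, nor whether alleles other than those named are shared by the strains. Nor do they state whether each library had a culture of its own, and the p-values therefore measure no more than the spread between libraries, which may be technical.

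Structural noncoding RNAs work as the RNA cores of ribonucleoproteins. U1, U2, U4, U5 and U6 form the spliceosome, which removes introns from pre-mRNA; TLC1 is the template and scaffold of telomerase; RPR1 and NME1 are the RNAs of the endonucleases RNase P and RNase MRP, which process tRNA and ribosomal RNA precursors; and SCR1 is the RNA of the signal recognition particle, which directs nascent secretory proteins to the endoplasmic reticulum. In yeast RNA polymerase II makes U1, U2, U4, U5, NME1 and TLC1, and RNA polymerase III makes U6, RPR1 and SCR1. U1, U2, U4, U5 and TLC1 carry a ring of Sm proteins, U6 carries the Lsm2 to Lsm8 ring, and the polymerase II transcripts end without the usual cleavage and long poly(A) tail of an mRNA.

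The sequences below, from the RefSeq R64 reference (sacCer3), show the parts of these RNAs that touch their substrates, written as DNA from 5′ to 3′. Capitals mark the stretch of U1 that pairs with the 5′ splice site, the stretch of U2 that pairs with the branch site, the ACAGAGA box of U6, and the longest run of A and C in TLC1 (19 bases), which holds the template for telomere repeats.
snR19 bases 1 to 60, chrXIV:230613-230672, minus strand: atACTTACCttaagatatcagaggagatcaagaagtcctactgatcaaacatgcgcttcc
LSR1 bases 1 to 80, chrII:681783-681862, minus strand: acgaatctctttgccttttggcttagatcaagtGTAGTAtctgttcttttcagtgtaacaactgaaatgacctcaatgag
snR6 whole, chrXII:366235-366346, plus strand: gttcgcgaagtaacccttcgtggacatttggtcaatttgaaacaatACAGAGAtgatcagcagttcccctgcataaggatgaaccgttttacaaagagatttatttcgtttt
TLC1 bases 448 to 506, chrII:308034-308092, plus strand: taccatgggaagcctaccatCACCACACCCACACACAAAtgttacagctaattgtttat

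Of the 10 members, 6 hold a match to A, then 5 or 6 T, then G (ATTTTTG or ATTTTTTG), the form of many yeast Sm sites. It was searched on both strands, and the windows show the last match that a purine follows, in capitals, with U5 shown once.
LSR1 bases 567 to 603, chrII:681260-681296, minus strand: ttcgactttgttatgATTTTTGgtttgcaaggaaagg
snR19 bases 538 to 568, chrXIV:230105-230135, minus strand: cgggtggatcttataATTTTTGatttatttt
snR14 bases 129 to 160, chrV:167427-167458, minus strand: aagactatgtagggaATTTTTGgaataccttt
snR7-L bases 152 to 189, chrVII:939484-939521, minus strand: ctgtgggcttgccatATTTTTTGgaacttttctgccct
TLC1 bases 1138 to 1174, chrII:308724-308760, plus strand: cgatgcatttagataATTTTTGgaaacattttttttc
On the sense strand LSR1 held 2 matches, at bases 112 to 119 and 582 to 588. snR19 held 3, snR14 1, snR7-L and snR7-S 1 each over the same bases, and TLC1 4. No match was found in snR6, NME1, RPR1 or SCR1 and none on the other strand of any member. The motif stood in the sense strand of the first 160 bases of 3.33% of protein-coding genes of at least that length, in 12.5% for the 568 bases of snR19, in 26.2% for the 1175 bases of LSR1 and in 29.5% for the 1301 bases of TLC1. A match describes the letters only, and which match of an RNA binds the Sm ring was not tested.

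The 2 largest RNAs with an Sm ring moved in opposite directions in both double mutants. U2 (LSR1) rose 1.65-fold in spt6-R,KK and 1.88-fold in rpb1-TPY,FSP, and the telomerase RNA TLC1 was 1.59-fold and 1.68-fold lower there. U1 (snR19) rose by a smaller amount in both, and TLC1 also fell in the single mutant spt6-KK. The polymerase III transcripts SCR1 and RPR1 passed in no comparison with all 21 libraries in the fit, and nor did U4, U5 or U6, on low counts for U4 and U6. These are levels relative to the rest of each library, so a change in the amount of an RNA cannot be told apart from one in the RNA around it.

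Counts over full genes summed to 4860861 in the smallest library and 7803152 in the largest, and edgeR tested 5618 genes, 8 members among them; snR6 did not pass that filter and snR7-S is only in the mid-gene table. The members together took 2.57% to 4.75% of the full-gene counts of a library, SCR1 1.51% to 2.28% and LSR1 0.69% to 2.01%. The WT libraries stood apart in ribosomal RNA among mid-gene sense counts, with shares of 7.10%, 12.6% and 19.1% where no mutant library left the range from 2.98% to 6.21%. In the full-gene counts, on which the tests below were run, the share was 1.51% to 1.61% in WT and 1.30% to 2.46% in the mutants. The 2 shares do not cover the same RNAs. Ribosomal RNA genes named RDN took at most 0.000693% of a library's full-gene counts, against 1.56% to 18.1% of its mid-gene counts. The full-gene share thus does not show how much RDN RNA a library held. The part of the ribosomal RNA of the WT libraries in the differences from WT was not tested. SPT6 itself fell in spt6-R (log2 -0.89, edgeR adjusted p = 0.00245), spt6-R,KK (-1.03, adjusted p = 4.59e-05) and rpb1-TPY,FSP (-0.45, adjusted p = 0.0328). Its value in spt6-KK was -0.48 (adjusted p = 0.0513), and RPO21, which encodes Rpb1, passed in no strain.

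LSR1 (chrII:680688-681862, minus strand, 1175 nt) is the yeast U2 snRNA, which recognises the branch site, through the capitals of its first sequence above. Its level in CPM, the counts scaled to library size, was 8588, 8324 and 9218 in the 3 WT libraries. It was 16008, 14582 and 12567 CPM in spt6-R,KK and 13642, 19754 and 15846 CPM in rpb1-TPY,FSP. Every library of either double mutant lay above every WT library. The level was 8710 ± 459 CPM (SD, n = 3) in WT, 14386 ± 1729 in spt6-R,KK and 16414 ± 3096 in rpb1-TPY,FSP. LSR1 rose by a log2 of 0.72 ± 0.16 (SE) in spt6-R,KK (edgeR adjusted p = 0.00163) and by 0.91 ± 0.16 in rpb1-TPY,FSP (edgeR adjusted p = 0.000203).

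None of the single mutants passed for U2. LSR1 stood at 8269, 11549 and 11179 CPM in spt6-R, at 9683, 10236 and 9931 in spt6-KK, at 8251, 10529.7 and 7486 in rpb1-TPY and at 9911, 10112 and 12567 in rpb1-FSP. The spt6-KK and rpb1-FSP libraries all lay above WT, while the spt6-R and rpb1-TPY libraries overlapped it. The log2 differences from WT were 0.25 (95% interval -0.09 to 0.58) in spt6-R, 0.19 (-0.15 to 0.53) in spt6-KK, 0.01 (-0.33 to 0.34) in rpb1-TPY and 0.32 (-0.02 to 0.66) in rpb1-FSP, and none passed (edgeR adjusted p of 0.339 or more). In the order of strain means the double mutants came first, with ranges that overlapped each other but no single mutant except rpb1-FSP, whose highest library (12567 CPM) matched the lowest of spt6-R,KK to the nearest CPM. Below them rpb1-FSP, spt6-R and spt6-KK overlapped one another, and rpb1-TPY and WT came last. In log2 terms the double mutant exceeded its singles summed by 0.59 ± 0.23 on the RPB1 side (edgeR adjusted p = 0.180) and by 0.29 ± 0.23 on the SPT6 side (adjusted p = 0.573); neither passed. The first of these passed (adjusted p = 0.0469) when library 1 of each double mutant was left out.

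snR19 (chrXIV:230105-230672, minus strand, 568 nt) is the U1 snRNA, which recognises the 5′ splice site. It stood at 2715, 2391 and 2634 CPM in WT, at 4177, 3454 and 3128 in spt6-R,KK and at 2507, 4366 and 4300 in rpb1-TPY,FSP. The spt6-R,KK libraries all lay above WT, whereas library 1 of rpb1-TPY,FSP lay within the WT range and the other 2 well above it. That library 1 had the highest scaling factor (TMM) of the 21 libraries, at 1.21, and a higher factor gives a lower CPM. The part of the scaling in its U1 level was not tested. U1 rose by a log2 of 0.48 ± 0.17 in spt6-R,KK (edgeR adjusted p = 0.0364) and by 0.53 ± 0.17 in rpb1-TPY,FSP (edgeR adjusted p = 0.0222), changes of 1.39-fold and 1.44-fold. Both calls were lost when certain single libraries were left out. For spt6-R,KK edgeR's adjusted p became 0.0578, 0.124 and 0.0729 when WT library 1, 2 or 3 was left out, and 0.157 and 0.0694 when its own library 1 or 2 was. For rpb1-TPY,FSP it became 0.0854 and 0.0505 when WT library 2 or 3 was left out, and 0.142 and 0.137 when its own library 2 or 3 was. U1 stood at 2771, 3281 and 3480 CPM in spt6-R, all above WT, with a log2 difference of 0.30 ± 0.17 that did not pass (edgeR adjusted p = 0.291). In the other singles it overlapped WT, with log2 differences of -0.06 in spt6-KK, -0.02 in rpb1-TPY and 0.11 in rpb1-FSP.

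**Figure D1:**
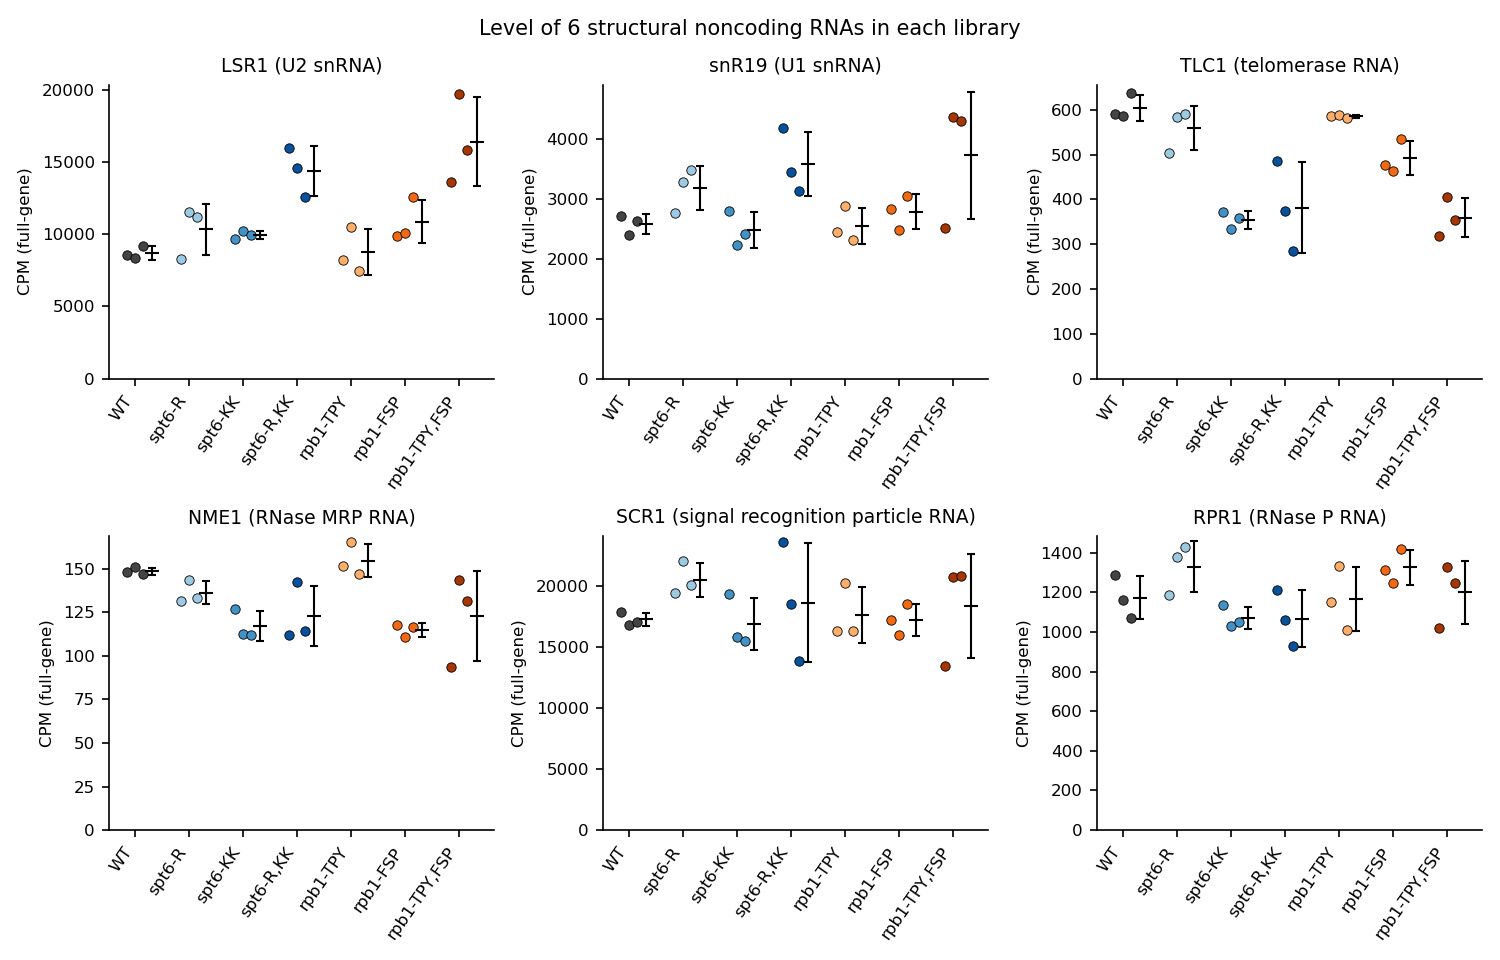
Level in CPM (vertical axes, from 0) of LSR1, snR19, TLC1, NME1, SCR1 and RPR1 in each of the 3 libraries of 7 strains (points, library 1 to 3 from left to right), with the strain mean and SD (bars). LSR1 lies highest in both double mutants (12567 to 19754 CPM against 8324 to 9218 in WT), TLC1 lies lowest in spt6-KK and both double mutants (284 to 486 against 585 to 638), and SCR1 and RPR1 overlap WT in every strain but SCR1 in spt6-R.

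U2 and U1 moved together across libraries. The Pearson correlation of log2 CPM between LSR1 and snR19 was 0.82 over 21 libraries, which share their strains, depth and scaling. The ratio of U2 to U1 reads also differed, with no test run on it. There were 316 to 350 LSR1 reads for each 100 snR19 reads in WT, 383 to 422 in spt6-R,KK and 369 to 544 in rpb1-TPY,FSP. Both double mutants thus lay above WT. The single mutants overlapped WT, but spt6-KK (345 to 460) and rpb1-FSP (350 to 412) also reached into the range of the double mutants. The other singles ran from 298 to 352 (spt6-R) and from 323 to 365 (rpb1-TPY). As a description of the ratio against a polymerase III transcript of the same library, LSR1 gave 47.9 to 54.0 reads per 100 SCR1 reads in WT, 67.7 to 90.8 in spt6-R,KK and 75.8 to 101 in rpb1-TPY,FSP. snR19 gave 14.2 to 15.4 reads per 100 SCR1 reads in WT, 17.7 to 22.6 in spt6-R,KK and 18.6 to 21.0 in rpb1-TPY,FSP. On this ratio library 1 of rpb1-TPY,FSP stood with the other libraries of its strain for U1, and its SCR1 level (13473 CPM) was the lowest of the strain's 3. The ratio also set rpb1-FSP above WT, with 57.5 to 67.6 for LSR1 and 15.5 to 16.4 for snR19. With RPR1 in place of SCR1, LSR1 still lay above WT in both double mutants (1271 to 1485 against 667 to 860 reads per 100). snR19 did so only in spt6-R,KK (325 to 344 against 206 to 245.8). Library 1 of rpb1-TPY,FSP was at 245.5 for snR19, apart from libraries 2 and 3 of its strain at 328 and 345. Against RPR1, rpb1-FSP overlapped WT for both LSR1 and snR19.

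snR14, snR6 and, in full-gene counts only, snR7-L were at the low end of what these libraries recorded. snR14 (U4, chrV:167427-167586, minus strand, 160 nt), which pairs with U6 and holds it inactive, had 32 to 76 counts per library. Its mean was 8.89 ± 2.35 CPM in WT and lay between 6.97 and 8.87 in the mutants. It passed in no comparison; the log2 difference from WT was -0.17 in spt6-R,KK with a 95% interval from -0.89 to 0.55, and -0.24 in rpb1-TPY,FSP with one from -0.95 to 0.47. Changes of the size seen for U2 in both double mutants (0.72 and 0.91) thus lay outside these intervals on the upper side, while falls of like size did not.

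snR6 (U6, chrXII:366235-366346, plus strand, 112 nt), the RNA at the catalytic centre of the spliceosome, had 0 to 12 counts per library. The 3 libraries of a strain together held 13 counts in WT, 16 in spt6-R, 19 in spt6-KK, 12 in spt6-R,KK, 9 in rpb1-TPY, 9 in rpb1-FSP and 22 in rpb1-TPY,FSP. As a rate this was 0.75 CPM in WT with an exact 95% Poisson interval of 0.40 to 1.28, and 0.50 (0.23 to 0.95) to 0.96 (0.60 to 1.45) in the mutants, intervals that cover counting error only. No difference was detectable at this depth.

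U5, which holds the exons to be joined, is annotated in 2 forms that share their first 179 bases, and the capitals below mark the 35-base tail that the short form lacks.
snR7-L whole, chrVII:939459-939672, minus strand: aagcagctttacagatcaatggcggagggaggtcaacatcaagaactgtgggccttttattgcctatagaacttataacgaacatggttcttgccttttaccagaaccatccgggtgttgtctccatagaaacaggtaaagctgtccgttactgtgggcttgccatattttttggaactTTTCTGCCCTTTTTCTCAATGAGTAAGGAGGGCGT
The full-gene table listed snR7-L with 18 to 44 counts per library and held no row for snR7-S, whereas the mid-gene table gave snR7-L 358 to 1090. In the mid-gene table the counts of the long and the short form were identical in 18 of 21 libraries and differed by at most 3 in the others. The full-gene count of snR7-L was 2.51% to 8.70% of its mid-gene count. How reads that lie in both forms were counted is not stated in the sources used here, and the deposited counts do not separate the forms. Neither kind of count passed in any comparison: in mid-gene counts the log2 difference of snR7-S from WT was 0.00 (95% interval -0.56 to 0.56) in spt6-R,KK and 0.13 (-0.43 to 0.69) in rpb1-TPY,FSP, and that of snR7-L was the same to 2 decimals. In full-gene counts snR7-L in rpb1-TPY,FSP had the opposite sign, at -0.45 (95% interval -1.08 to 0.19). Of all genes tested on mid-gene counts 7.11% passed in spt6-R, 11.8% in spt6-KK, 35.2% in spt6-R,KK, 0.106% in rpb1-TPY, 2.15% in rpb1-FSP and 33.8% in rpb1-TPY,FSP. The departures from the sum of singles (0.3% and 3.02%), the double mutants against each other (0.0176%) and any difference among strains (41.1%) called no U5 form either. Mid-gene U5 was highest in library 1 in 5 of 7 strains, by up to 148 against 66.5 and 71.5 CPM in spt6-R,KK; what the number marks is not given.

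TLC1 (chrII:307587-308887, plus strand, 1301 nt) is the telomerase RNA, whose template is capitalised above. It stood at 590.1, 585 and 638 CPM in WT. It was 371, 333 and 358 in spt6-KK, 486, 373 and 284 in spt6-R,KK and 319, 404 and 354 in rpb1-TPY,FSP. All 9 of these libraries lay below every WT library. The strain means were 604 ± 29.5 CPM (SD, n = 3) in WT, 354 ± 19.4 in spt6-KK, 381 ± 101 in spt6-R,KK and 359 ± 43.1 in rpb1-TPY,FSP. TLC1 fell by a log2 of 0.77 ± 0.14 (SE) in spt6-KK (edgeR adjusted p = 0.00158), by 0.66 ± 0.14 in spt6-R,KK (adjusted p = 0.000985) and by 0.75 ± 0.14 in rpb1-TPY,FSP (adjusted p = 0.000329).

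The remaining single mutants kept more of the telomerase RNA. TLC1 stood at 504, 583 and 591 CPM in spt6-R, at 585, 589 and 581 in rpb1-TPY and at 477, 464 and 536 in rpb1-FSP. The rpb1-FSP libraries all lay below WT and the others overlapped it. The log2 difference was -0.11 (95% interval -0.40 to 0.18) in spt6-R, -0.05 (-0.34 to 0.24) in rpb1-TPY and -0.30 (-0.59 to 0.00) in rpb1-FSP, where edgeR's adjusted p was 0.295. By strain mean WT, rpb1-TPY and spt6-R led the order with overlapping ranges, rpb1-FSP came next and overlapped spt6-R and spt6-R,KK, and the 3 strains in which TLC1 fell overlapped one another at the low end. On the log2 scale the spt6-R,KK value differed from the sum of its singles by 0.22 ± 0.20 (edgeR adjusted p = 0.628) and the rpb1-TPY,FSP value by -0.41 ± 0.20 (adjusted p = 0.305), and neither passed. In reads per 100 SCR1 reads TLC1 ran from 3.29 to 3.74 in WT and from 1.69 to 2.36 over spt6-KK, spt6-R,KK and rpb1-TPY,FSP; on this ratio spt6-R (2.59 to 2.94) and rpb1-FSP (2.77 to 2.90) also lay below WT.

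**Figure D2:**
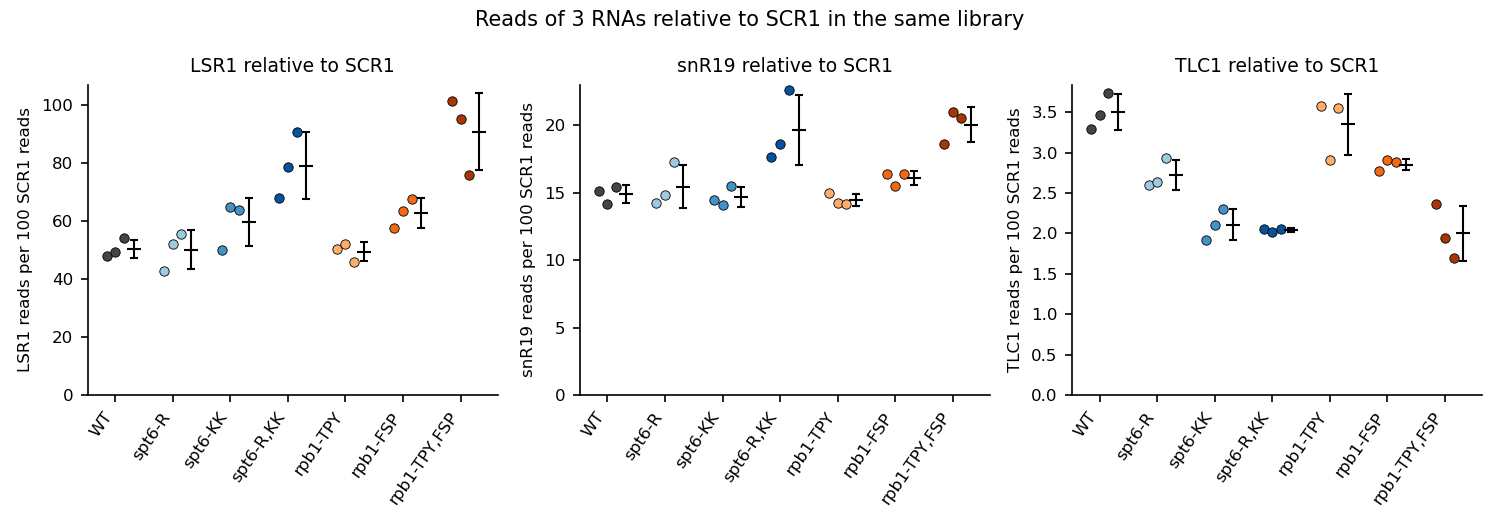
Reads of LSR1, snR19 and TLC1 per 100 SCR1 reads of the same library (vertical axes, from 0) in the 7 strains; points are libraries 1 to 3 from left to right, and bars give the mean and SD. LSR1 and snR19 lie above WT in both double mutants and in rpb1-FSP, and TLC1 lies below WT in every mutant but rpb1-TPY.

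NME1 (chrXIV:585587-585926, plus strand, 340 nt), the RNase MRP RNA, had the smallest SD relative to its mean of all members in WT, at 148, 151 and 147 CPM. It stood at 118, 111 and 117 CPM in rpb1-FSP, at 127, 112 and 112 in spt6-KK, at 112, 143 and 115 in spt6-R,KK and at 93.5, 143 and 132 in rpb1-TPY,FSP. All of these libraries lay below WT, as did those of spt6-R (131, 144 and 133), and those of rpb1-TPY (151, 165 and 147) overlapped it. NME1 differed among the 7 strains as a whole (edgeR adjusted p = 0.0372), a call that was lost with mid-gene counts (adjusted p = 0.0564) and when any of 16 of the 21 libraries was left out (0.0515 to 0.0882). Its mid-gene and full-gene counts were nearly the same, with sums of 17545 and 17552 over the 21 libraries. No single strain passed against WT: the log2 differences were -0.37 ± 0.13 in rpb1-FSP (edgeR adjusted p = 0.132), -0.34 ± 0.13 in spt6-KK (0.0783), -0.28 ± 0.13 in rpb1-TPY,FSP (0.0989) and -0.27 ± 0.13 in spt6-R,KK (0.101). Without library 1 of rpb1-TPY,FSP, where NME1 was lowest, the value passed in spt6-KK (adjusted p = 0.0179), rpb1-FSP (0.0450) and spt6-R,KK (0.0397), and without library 2 of a double mutant in that double mutant (0.0408 in spt6-R,KK and 0.0294 in rpb1-TPY,FSP).

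RPR1 and SCR1 passed in no comparison with all 21 libraries in the fit. Without library 1 of both double mutants RPR1 passed for any difference among the strains (edgeR adjusted p = 0.0236). RPR1 (chrV:117667-118035, minus strand, 369 nt), the RNase P RNA, had 1287, 1159 and 1072 CPM in WT and 927 to 1428 over the mutants. SCR1 (chrV:441987-442508, plus strand, 522 nt), the signal recognition particle RNA, had 17915, 16869 and 17081 CPM in WT and 13473 to 23634 over the mutants. Both overlapped WT in every strain, except SCR1 in spt6-R at 19423, 22120.3 and 20123. There its log2 difference was 0.25 (95% interval -0.12 to 0.62), which passed in edgeR with the libraries of that comparison alone (adjusted p = 0.0195). The 95% intervals of the log2 difference ran from -0.41 to 0.13 (spt6-R,KK) and -0.24 to 0.30 (rpb1-TPY,FSP) for RPR1, and from -0.26 to 0.48 and -0.28 to 0.46 for SCR1 in the same strains. Within spt6-R,KK the 3 libraries of SCR1 (23634, 18523 and 13841 CPM) spread wider than the distance of any strain mean from WT. Across the 21 libraries the log2 CPM of SCR1 correlated with that of RPR1 (r = 0.70) and snR19 (r = 0.71), values that describe libraries sharing strain and scaling.

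**Figure D3:**
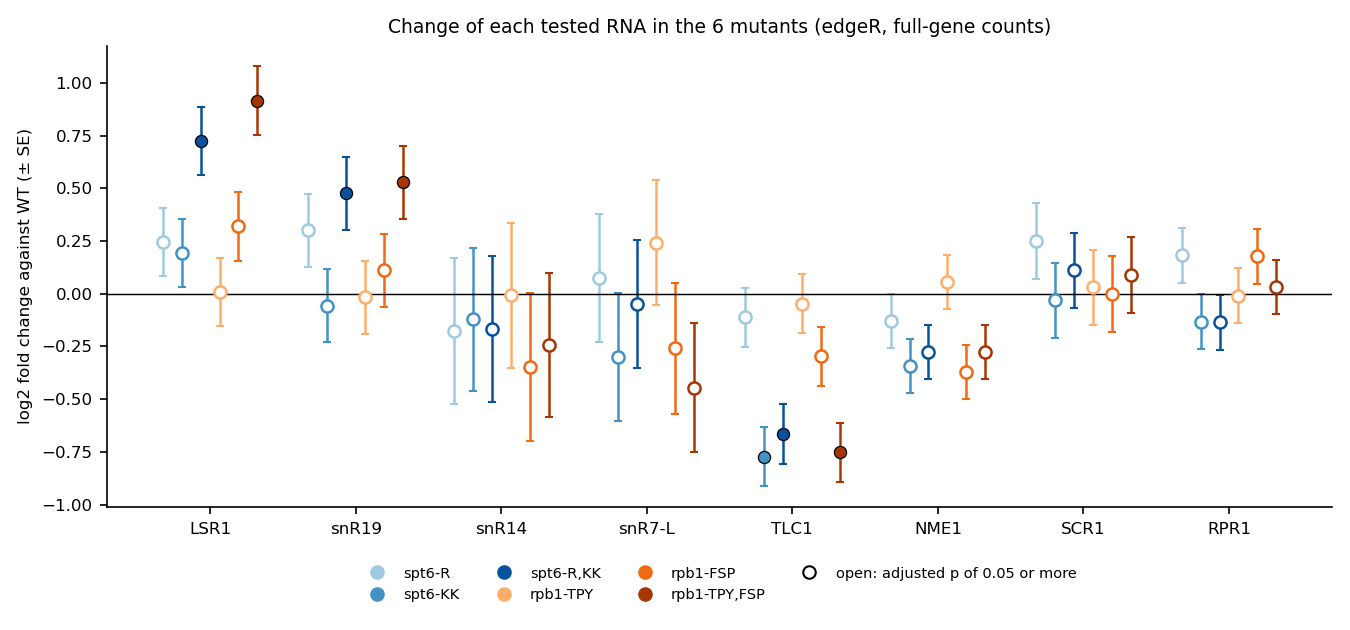
Log2 fold change against WT with its SE (vertical axis) for the 8 tested RNAs in the 6 mutants (colours), from edgeR on full-gene counts; filled points have an adjusted p below 0.05. The filled points are LSR1 and snR19 above 0 in both double mutants and TLC1 below 0 in spt6-KK and both double mutants.

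Counted over the 8 tested members, the share that passed was close to that of all genes. Among the 6 comparisons with WT, 3 members passed in spt6-R,KK (36.7% of all genes tested did) and 3 in rpb1-TPY,FSP (35.2% of all genes), in each case LSR1 and snR19 upward and TLC1 downward. Of all genes 19.3% passed upward and 17.5% downward in spt6-R,KK, and 18.8% and 16.4% in rpb1-TPY,FSP. In spt6-KK 1 member passed (13.3% of all genes), TLC1, downward (6.94%). In edgeR 0 members passed in spt6-R (8.49% of all genes), rpb1-TPY (0.0534%) or rpb1-FSP (2.35%), and DESeq2 also called 0; at an unadjusted p below 0.05 there were 0, 0 and 2, the latter being NME1 and TLC1. The double mutants against each other gave 0 (0.0356% of all genes), as did the departures from the sum of singles on the SPT6 side (0.356%) and the RPB1 side (3.19%); DESeq2 called 0 in these too, and at an unadjusted p below 0.05 there were 0, 0 and 1 (LSR1). The 2 double mutants share the WT libraries, so their changes are set side by side here and not compared further: the difference of spt6-R,KK from rpb1-TPY,FSP was -0.19 (95% interval -0.53 to 0.15) for LSR1, -0.05 (-0.41 to 0.31) for snR19 and 0.09 (-0.20 to 0.38) for TLC1. Any difference among the 7 strains was called for 4 members (43.5% of all genes): LSR1 (edgeR adjusted p = 0.000378), snR19 (0.0237), NME1 (0.0372) and TLC1 (0.00012).

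By the cruder measure of libraries that do not overlap WT, spt6-R,KK held LSR1 and snR19 above (23.4% of all genes) and NME1 and TLC1 below (22.5%), and rpb1-TPY,FSP held LSR1 above (26.2%) and NME1 and TLC1 below (22%). Among the singles, spt6-KK held LSR1 above (18.9%) and NME1 and TLC1 below (17.4%), as did rpb1-FSP (13% and 14.5%), spt6-R held snR19 and SCR1 above (17.4%) and NME1 below (19.6%), and rpb1-TPY held 0 of the 8 above (3.24%) or below (2.51%). The median log2 difference over the 8 members was -0.09 in spt6-R,KK and -0.10 in rpb1-TPY,FSP, beside 0.02 and 0.06 over all genes tested. The 74 tested small nucleolar RNA genes, the other large class of short structural RNAs, had medians of -0.19 and -0.09, with 9 up and 17 down in spt6-R,KK and 8 up and 19 down in rpb1-TPY,FSP. Their summed share of the counts stayed between 1.86% and 2.76% of a library.

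Levels per length spanned a wide range and were lowest for short members. In WT the mean was 33119 CPM per kb for SCR1, 7413 for LSR1, 4542 for snR19, 3178 for RPR1, 465 for TLC1, 437 for NME1, 55.6 for snR14, 23.6 for snR7-L and 5.96 for snR6 by full-gene counts. The 2 members under 200 nt, snR6 and snR14, were thus among the 3 lowest. The third, snR7-L, is the one whose full-gene count was a small share of its mid-gene count. By mid-gene counts, divided by its whole annotated length of 214 nt, snR7-L stood at 446 CPM per kb in WT. Those counts do not separate it from snR7-S. Small nucleolar RNA genes leaned the same way by median, with 92.3 CPM per kb for 55 genes under 200 nt and 1558 for 20 genes of 200 nt or longer. Their ranges overlapped widely, from 10.2 to 6064 CPM per kb under 200 nt and from 112 to 13017 at 200 nt or longer. Per the labels' protocols the RNA passed over a silica column kit and ribosomal RNA was depleted before stranded libraries were made. The part of these steps in the low values of short RNAs was not tested. The low counts of U4 and U6, and the low full-gene counts of U5, are therefore not read as their levels in the cell.

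**Figure D4:**
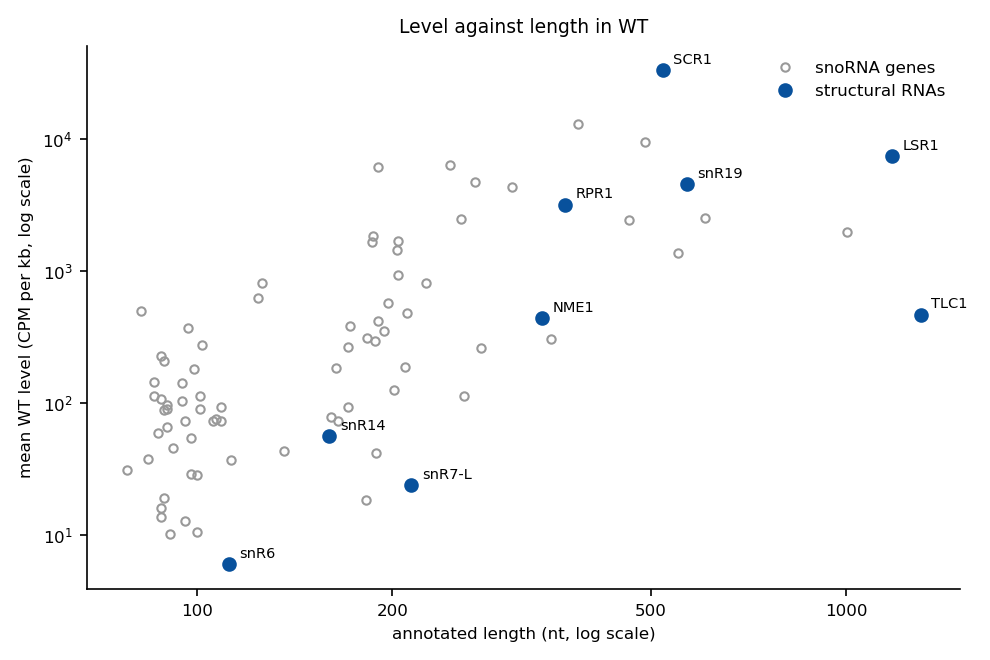
Mean WT level in CPM per kb (vertical, log scale) against annotated length in nt (horizontal, log scale) for the 9 members of the full-gene table (filled) and 75 small nucleolar RNA genes (open). The shortest members, snR6 at 5.96 and snR14 at 55.6, lie far below SCR1 at 33119 and LSR1 at 7413.

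The mRNAs of proteins that bind or process these RNAs were read from lists of 106 genes, of which 105 were tested. In spt6-R,KK 5 rose and 23 fell (19.3% and 17.5% of all genes did), and in rpb1-TPY,FSP 7 rose and 17 fell (18.8% and 16.4%). In spt6-KK 7 rose and 3 fell (13.3% of all genes passed in either direction), in spt6-R 0 rose and 5 fell (8.49%), and none passed in rpb1-TPY, in rpb1-FSP, in either departure from the sum of singles or between the double mutants. The mRNA of telomerase's reverse transcriptase and TLC1 moved in opposite directions. EST2, the reverse transcriptase, rose by a log2 of 0.64 in spt6-KK (edgeR adjusted p = 0.0255), 0.95 in spt6-R,KK (adjusted p = 0.000385) and 1.22 in rpb1-TPY,FSP (adjusted p = 2.35e-05), the strains in which TLC1 fell. Of the 5 telomerase and Ku genes 2 rose in spt6-KK, 3 in spt6-R,KK, where EST1, a telomerase recruitment subunit, had 0.71 and YKU70, a Ku subunit that binds TLC1, 0.63, and 1 in rpb1-TPY,FSP, and none fell.

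Of 11 U2 proteins, CUS1, which helps U2 bind the branch region, rose with its RNA by 0.78 in spt6-R,KK (edgeR adjusted p = 0.00216) and 1.02 in rpb1-TPY,FSP (adjusted p = 0.00016), and by 1.00 in spt6-KK (adjusted p = 0.00141), where LSR1 did not pass. LEA1, the U2 A′ protein, rose by 0.78 in rpb1-TPY,FSP and by 0.84 in spt6-KK and stood at 0.53 (adjusted p = 0.0651) in spt6-R,KK. YSF3, a small U2 subunit, fell by 1.06 in spt6-R,KK and by 0.66 in rpb1-TPY,FSP. Of 10 U1 proteins MUD1 (0.83) and PRP40 (0.71) rose in rpb1-TPY,FSP and PRP42 fell by 0.47 in spt6-R,KK, with 0 further calls in the double mutants. SNU13, a protein of U4 that also binds box C/D small nucleolar RNAs, fell by 0.79 and 0.70 in the double mutants. It was the 1 call in either double mutant among 16 U4/U6.U5 proteins. Of all genes 36.7% passed in spt6-R,KK and 35.2% in rpb1-TPY,FSP, larger shares than in the U2, U1 or U4/U6.U5 list. These lists were not tested against those shares.

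The Sm and Lsm genes encode the rings that these RNAs carry. SME1 fell by 0.84 in spt6-R,KK and 0.54 in rpb1-TPY,FSP, SMX2 by 0.65 and 0.55, and SMD2 by 0.57 in spt6-R,KK, making 3 and 2 of 7 Sm genes. LSM6 fell by 0.92 and 0.76 and LSM2 by 0.48 and 0.47, with LSM7 (0.42) in spt6-R,KK and LSM5 (0.58) in rpb1-TPY,FSP, making 3 of 7 each, and 0 of either ring rose; of all genes 17.5% fell in spt6-R,KK and 16.4% in rpb1-TPY,FSP, and these short lists were not tested against that share. Of 11 RNase P and MRP proteins 3 fell in spt6-R,KK (POP6 by 1.12, POP8 by 0.98 and RPP1 by 0.56) and 2 in rpb1-TPY,FSP (POP8 by 0.88 and RPP1 by 0.43). Of 8 signal recognition particle and receptor genes 2 fell in each double mutant, SRP14 by 0.52 and 0.35, the gene of the receptor's beta subunit by 0.44 in spt6-R,KK and that of its alpha subunit by 0.35 in rpb1-TPY,FSP.

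Of 11 tested genes of snRNA 3′-end formation and processing 6 fell and 1 rose in spt6-R,KK, where 17.5% of all genes fell, and 4 fell and 1 rose in rpb1-TPY,FSP, where 16.4% did; the list was not tested against those shares. PAP2, the nuclear poly(A) polymerase of the TRAMP complex, fell by 0.69 (edgeR adjusted p = 0.000215) and 0.56 (adjusted p = 0.00142). LHP1, the yeast La protein, fell by 0.73 and 0.61, and MTR4, the TRAMP helicase, by 0.65 and 0.51. NRD1, which directs termination of short polymerase II transcripts, rose by 0.71 and 0.67. Of 19 RNA polymerase III genes 3 fell in spt6-R,KK (RPC31 by 0.87, RPC82 by 0.52 and RPC11 by 0.50), while in rpb1-TPY,FSP RPC82 (0.44) and RPO31 (0.42) fell and the initiation factor gene BRF1 rose by 0.50.

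Among genes that are no members, those whose log2 CPM followed a member most closely over the 21 libraries were ACA1 (r = 0.91), BXI1 (0.90) and SPO24 (0.90) for LSR1, CDC42 (0.89), WBP1 (0.89) and YDL144C (0.87) for snR19, PTR2 (0.86), HTZ1 (0.85) and NHP6B (0.83) for NME1, and SAM1 (0.94), YIP3 (0.93) and URA5 (0.93) for TLC1. These were the 3 highest Pearson correlations of each, out of all genes tested, over libraries that share strain, depth and scaling. Between members the correlation was -0.49 for LSR1 and TLC1 and 0.65 for NME1 and TLC1.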

How the data were processed

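The authors deposited raw counts of reads per gene and library, over full genes and, sense reads only, over the middle 70% of each gene, per the file headers. The submitters' processing notes name cutadapt 1.16, STAR 2.6.1b, featureCounts 1.6.3 of Subread, DESeq2 1.22.2 and the builds sacCer3 and R64, without their roles. Column names were matched to sample titles. Full-gene counts were compared with edgeR 4.0.16 (R 4.3.3): filterByExpr (which left out 205 genes), TMM factors, and quasi-likelihood tests on 21 libraries with strain as the only term (common biological coefficient of variation 0.154), called at a Benjamini-Hochberg adjusted p below 0.05 over all genes. Contrasts were each mutant against WT, the departure of each double mutant from its singles summed, the double mutants against each other, and any difference among strains; snR7-S was tested on mid-gene counts (5667 genes). CPM are per TMM-scaled library, with SDs over 3 libraries. The procedure was checked on simulated data. Members, the 10 partner lists and the tests were chosen with earlier results of these data known. The naming rule took all members, up to 4 genes per list with the smallest adjusted p in a double mutant, 3 genes per member by correlation, and the mutated genes. REX1 of the 3′-end list had too few counts to be tested. Alternatives were other scalings, DESeq2 1.42.0, no filter, a library-number term, mid-gene counts, only the strains of a contrast, and libraries left out. The authors' transformed values and comparison tables were not used. No pair of libraries was identical.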

Additional observations from a re-analysis of the deposited data

How the results depend on the processing

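Over 2088 alternative values of the 72 member changes, 2064 kept their side of the threshold, 11 lost and 13 gained a call; 0 called values turned sign, and 88 uncalled ones among the 2064 did. The calls of LSR1 in both double mutants (log2 0.64 to 0.82 and 0.74 to 1.04) and of TLC1 in spt6-KK (-0.81 to -0.73), spt6-R,KK (-0.88 to -0.49) and rpb1-TPY,FSP (-0.87 to -0.67) held in every alternative run. U1 also lost its spt6-R,KK call with mid-gene counts (snR19, edgeR adjusted p = 0.0506) and its rpb1-TPY,FSP call with only the contrast's strains (edgeR adjusted p = 0.0938). The mid-gene counts of snR19 over the 21 libraries summed to 402940, beside 402981 in full-gene counts. That fit is therefore not a separate count of U1. With only the strains of the contrast, 2 members in place of 0 were called in spt6-R (snR19 and SCR1), 2 in place of 1 in spt6-KK and 1 in place of 0 in rpb1-FSP (NME1 in both). When library 1 of each double mutant was left out, the members called were 2 in spt6-KK, 1 in rpb1-FSP and 2 in place of 0 in the departure from the sum of the RPB1 singles (LSR1 and snR19). In that run RPR1 also passed in edgeR's test for any difference (adjusted p = 0.0236), beside the members called before. Leaving out 1 library at a time, the members called ranged from 1 to 2 in spt6-KK and 0 to 1 in rpb1-FSP. For any difference they ranged from 2 to 4, against 4 in the main fit. The spt6-KK and rpb1-FSP values of 2 and 1 came without rpb1-TPY,FSP library 1. The 2 for any difference came without spt6-KK library 2 or 3 or rpb1-TPY,FSP library 3. The members lost from that test were NME1 (also with mid-gene counts) and snR19 (adjusted p up to 0.0721).

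The library number was not taken to pair the libraries: deviations from the strain mean of same-numbered libraries correlated between -0.42 and 0.49 (median 0.13, over 0.1 in 39 of 63 pairs), though 18 of 21 libraries correlated best with their own number. With the number as a replicate block the members called were as before in every comparison (0, 1, 3, 0, 0 and 3 for spt6-R, spt6-KK, spt6-R,KK, rpb1-TPY, rpb1-FSP and rpb1-TPY,FSP), and genes called in the SPT6 departure from the sum went from 20 to 80. Counts over all genes moved by more than 1.5 times as follows. With only the contrast's strains spt6-R went from 477 to 902, rpb1-TPY from 3 to 1, rpb1-FSP from 132 to 436, the SPT6 departure to 44 and the double mutants against each other from 2 to 1. DESeq2 called 229 in rpb1-FSP and 104 in the SPT6 departure, and mid-gene counts gave 6 in rpb1-TPY and 1 between the double mutants. With library 1 of each double mutant left out there were 766 in spt6-R, 322 in rpb1-FSP, 124 and 367 (from 179) in the SPT6 and RPB1 departures and 1 between the double mutants. Leaving out 1 library took spt6-R down to 110, spt6-KK from 747 to 268, rpb1-TPY to 1, rpb1-FSP to 49 or 240, the SPT6 departure to 6 or 85, the RPB1 departure to 96 and the double mutants to 1. Counts of U4 and U6 limit what could be seen of them, and counts do not separate the U5 forms.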
